A study of Mus musculus with 11 samples.

Results

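The SLC25 genes encode the mitochondrial carrier family, and their array signals were followed through the erythroid stages of the mouse fetal liver. A gene counted as a member when its symbol in the array's annotation was Slc25a followed by a number, with Slc25a37 and Slc25a38 left out. For each gene the probe set that matched it alone and had the highest mean log2 signal over the 11 arrays was used. By this rule 42 of the 18193 genes with such a probe set were members. Of these, 35 were bright enough to be tested, at or above the array's median signal on at least 2 arrays, as were 13100 of all genes. The samples were fetal liver cells of C57/Bl6 embryos at day E14.5 of gestation, stained for Ter119, an erythroid surface antigen, and for CD71, the transferrin receptor. They were untreated and were sorted by flow cytometry into R1, R2, R3, R4 and R5, successive stages with R1 the least and R5 the most mature. R1 was measured on 2 arrays, R2 and R3 on 3 arrays each, R4 on 1 and R5 on 2. Whether the replicates are separate sorts or litters is not stated, so the p-values reflect only how these arrays vary, which may be technical.

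Mitochondrial carriers are small proteins of the inner membrane that exchange a metabolite of the matrix for one outside it. They move ADP against ATP, phosphate, nucleotides, cofactors, amino acids, glutathione, dicarboxylates and acylcarnitines, and uncoupling proteins belong to the same family. Red cell precursors make haem partly inside mitochondria, which requires glycine, iron, succinyl-CoA and cofactors in the matrix, and the mitochondria are lost at the end of maturation.

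The promoter windows of the 6 members that differed between R3 and R2 and had an entry by symbol are printed here, since these genes moved at the same step. Slc25a39 rose, and Slc25a4, Slc25a33, Slc25a36, Slc25a30 and Slc25a16 fell. Each window holds the first 250 bases of the RefSeq promoter entry (GRCm38.p6), upstream of the start that the entry uses, read 5′ to 3′ on the gene's strand. The windows on the minus strand are chr11:102407518-102407767 for Slc25a39, chr8:46211063-46211312 for Slc25a4, chr4:149774268-149774517 for Slc25a33, chr9:97111042-97111291 for Slc25a36 and chr14:75787038-75787287 for Slc25a30. That of Slc25a16 is chr10:62920383-62920632 on the plus strand, and its last base is the first of the annotated gene. The window of Slc25a39 lies inside the annotated span of the gene, which reaches to position 102408675, so that it stands before an internal start and not before the outermost one. Capitals mark matches on either strand to 3 short motifs, AGATAA, a site of the GATA family of transcription factors, CACGTG, an E-box, and CCAAT, the core of the NF-Y motif.
Slc25a39: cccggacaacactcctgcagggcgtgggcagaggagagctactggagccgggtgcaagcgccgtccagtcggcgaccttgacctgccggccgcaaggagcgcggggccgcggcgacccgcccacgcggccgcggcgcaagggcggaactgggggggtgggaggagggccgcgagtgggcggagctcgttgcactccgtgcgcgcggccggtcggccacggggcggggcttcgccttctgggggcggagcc
Slc25a4: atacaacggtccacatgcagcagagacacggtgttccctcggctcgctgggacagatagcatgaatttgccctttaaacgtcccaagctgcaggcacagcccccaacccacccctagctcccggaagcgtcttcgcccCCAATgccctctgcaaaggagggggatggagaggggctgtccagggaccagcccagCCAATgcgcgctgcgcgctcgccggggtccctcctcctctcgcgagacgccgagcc
Slc25a33: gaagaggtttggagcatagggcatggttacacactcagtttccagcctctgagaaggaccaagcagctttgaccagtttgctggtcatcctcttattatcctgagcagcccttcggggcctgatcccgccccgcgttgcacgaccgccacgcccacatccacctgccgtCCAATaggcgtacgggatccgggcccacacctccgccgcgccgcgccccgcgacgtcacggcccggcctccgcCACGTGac
Slc25a36: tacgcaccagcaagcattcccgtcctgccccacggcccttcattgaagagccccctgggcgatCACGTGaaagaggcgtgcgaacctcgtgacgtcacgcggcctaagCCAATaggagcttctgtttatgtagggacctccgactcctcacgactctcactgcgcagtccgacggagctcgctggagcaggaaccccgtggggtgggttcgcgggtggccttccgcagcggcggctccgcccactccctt
Slc25a30: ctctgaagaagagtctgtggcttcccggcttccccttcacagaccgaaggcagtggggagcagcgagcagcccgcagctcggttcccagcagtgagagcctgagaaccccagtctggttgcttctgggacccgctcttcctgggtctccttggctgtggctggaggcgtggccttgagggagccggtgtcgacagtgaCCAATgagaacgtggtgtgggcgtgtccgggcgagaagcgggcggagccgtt
Slc25a16: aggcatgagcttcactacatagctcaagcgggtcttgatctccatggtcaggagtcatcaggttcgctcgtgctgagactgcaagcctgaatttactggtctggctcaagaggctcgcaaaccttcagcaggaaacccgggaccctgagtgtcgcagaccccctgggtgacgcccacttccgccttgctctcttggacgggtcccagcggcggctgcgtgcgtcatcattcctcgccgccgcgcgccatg
CCAAT was found in 4 of the 6 windows, those of Slc25a4, Slc25a33, Slc25a36 and Slc25a30, and CACGTG in 2, those of Slc25a33 and Slc25a36. The windows of Slc25a39, which rose, and of Slc25a16, which fell, held none of the 3 motifs, which says only that these letters are not in them. Of the 42 members, 33 had a window by symbol. CCAAT was present in 17 of them (51.5%) and in 33.8% of all 32851 windows. CACGTG was present in 7 of them (21.2%) and in 6.02% of all windows, and AGATAA in 2 (6.06%) and in 9.99%. The motifs do not overlap each other in letters, no difference in these shares was tested, and a match is a description of the sequence only.

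Signals were intensities on a linear scale, set by the authors so that the trimmed mean of every array was 500. Median signals ran from 53.6 to 120.4, and the correlation between replicate arrays, taken over genes (not independent of each other), was 0.85 to 0.95. Some arrays stood apart for the members. Replicate 2 of R3 was the lowest R3 array for 21 of the 35 tested members (60%, against 48.8% of all genes), and replicate 2 of R5 lay below replicate 1 for 27 (77.1%, against 62.5%). The sorted fractions held the markers of erythroid cells, with a mean log2 signal over 9 markers of 8.78 and 10.39 in R1 and 10.02 to 11.58 in R2. The R3 arrays gave 14.06 to 14.57, the R4 array 14.75, and the R5 arrays 14.64 and 14.79. All 9 rose in R3 against R2. Markers of hepatocytes rose with them in R3 against R2 but not before. In R2 against R1 8 of 9 erythroid and none of 7 hepatocyte markers had a positive change. The mean over the 7 hepatocyte markers was 9.82 and 9.57 in R1 and 7.43 to 9.08 in R2. It was 11.74 to 12.83 on the R3 arrays, 12.66 on the R4 array, and 12.28 and 13.99 on the R5 arrays. All 7 rose in R3 against R2, and none lay below the array median throughout a stage. The markers of haematopoietic progenitors ran lower along the same step, with 2 of 8 falling in R3 against R2 and a mean log2 signal of 7.29 to 8.44 in R3, against 8.35 to 9.72 in R2. In R5 against R1 2 of the 8 fell as well. The progenitor mean was 10.8 and 10.81 in R1, 9.15 on the R4 array, and 10.35 and 8.65 on the R5 arrays. In R5 against R3 all 8 had a positive change, with a median of 1.53, and none passed the test. All 6 tested lymphocyte, 6 mast cell and 9 endothelial and stromal markers also had positive changes (medians 2.30, 1.39 and 1.21), none called. Of the granulocyte markers 4 of 8 did. In R2 against R1 no tested lymphocyte, mast cell, macrophage or endothelial and stromal marker had a positive change (medians -2.69, -2.59, -1.19 and -1.29). Of these, 1 lymphocyte marker passed the test. In R3 against R2 4 of 9 endothelial and stromal markers rose, and of the macrophage markers 2 of 7 tested rose. Markers of granulocytes were bright on every array, with a mean over 8 of 12.25 to 14.43. In R1 this mean was 14.43 and 13.76 and in R2 12.43 to 14.32, above that of the erythroid markers on every array of both stages. None of the granulocyte, mast cell or megakaryocyte markers passed the test in R3 against R2. The signal of the pyruvate carboxylase control, 3′ end minus 5′ end on the log2 scale, was 0.20 and 0.38 in R1 and 0.75 to 1.84 in R2. The R3 arrays gave 2.45 to 3.29, the R4 array 2.72, and the R5 arrays 4.62 and 2.27. Other controls, read the same way, spanned a smaller range. Actin ran from 0.21 to 0.83 over all arrays, with 0.35 and 0.25 for R1 and 0.43 and 0.44 for R5. Gapdh ran from -0.46 to 0.23, and its highest values, 0.23 and 0.20, were those of R5. The part of these cells and of these RNA quality measures in the results below was not tested. In bulk fractions fewer cells of a type and less RNA per cell cannot be told apart.

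Across R1, R2, R3 and R5, 16 of the 35 tested members differed (45.7%), against 36.9% of all tested genes (F-test of limma, called at 0.05 after Benjamini-Hochberg adjustment). They were Slc25a4, Slc25a12, Slc25a13, Slc25a14, Slc25a16, Slc25a17, Slc25a24, Slc25a30, Slc25a32, Slc25a33, Slc25a36, Slc25a39, Slc25a45, Slc25a46, Slc25a47 and Slc25a51. Of these, 8 had their highest mean in R2. Among all 35, the mean was highest in R1 for 9 members, in R2 for 13, in R3 for 6 and in R5 for 7. It was lowest in R1 for 6, in R2 for 4, in R3 for 11 and in R5 for 14. The count of 16 rested on single arrays and was 6 and 9 when replicate 2 or replicate 1 of R1 was left out, and 10 when replicate 1 or 2 of R2 or replicate 2 of R5 was.

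**Figure D1:**
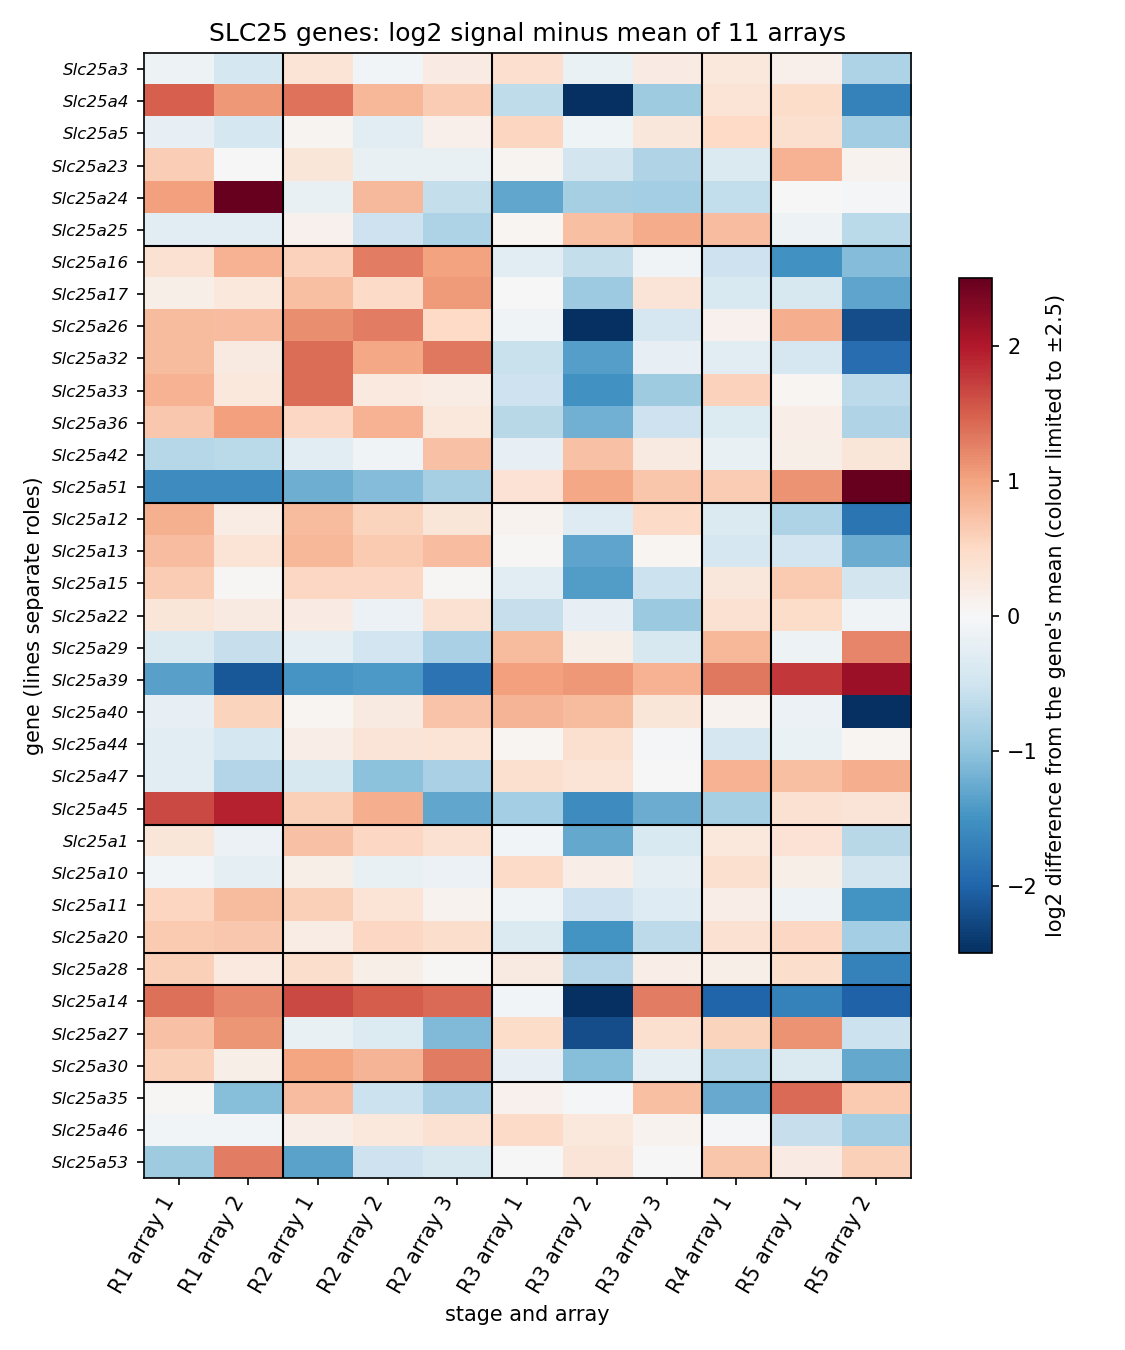
Log2 signal of the 35 tested SLC25 genes on each of the 11 arrays, as the difference from the gene's own mean over the arrays, with colour limited to 2.5 either way. Rows are grouped by role and columns by stage; Slc25a39 and Slc25a51 are below their means on every R1 and R2 array and above them on every R3, R4 and R5 array, and replicate 2 of R3 and of R5 are low in many rows.

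The step between R2 and R3 held the most changes. In R3 against R2, 2 members rose and 6 fell, while 27 did not pass the test (limma, adjusted p under 0.05). That is 22.9% of the tested members, against 20.7% of all tested genes. By direction, 5.71% of members and 10.6% of all genes rose, and 17.1% of members and 10.1% of all genes fell. The median log2 change was -0.47 over the members and -0.14 over all tested genes. The arrays of R3 lay wholly below those of R2 for 16 members (45.7%, against 27.4% of all genes) and wholly above for 4 (11.4%, against 22.6%). With each array centred on its median instead, which moves the median of all genes to -0.55, 2 members rose and 16 fell. The share of rises among the calls of all genes was 51.1% as deposited and 21.7% after centring. The R3 and R2 arrays did not overlap for any of the 8 called members. Their changes thus necessarily had the same direction within every replicate number, which adds nothing to the calls.

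Slc25a39, which brings glutathione into mitochondria, rose most. It read 55183, 57599 and 49873 in R3, against 9755, 10016 and 7551 in R2. In R1 it read 10612 and 6275, in R4 68012, and in R5 91996 and 120144. Every R3, R4 and R5 array thus lay above every R1 and R2 array. The log2 change in R3 against R2 was 2.58 ± 0.26 (SE, n = 3 each), or 5.99-fold, with a limma adjusted p of 0.000431. In the authors' deposited table it is the only tested member with a p-value under 0.05 for R3 against R2, at 0.0184. All 5 probe sets of the gene were higher in R3, by 2.58 to 3.26 on the log2 scale.

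Slc25a51, the carrier of NAD+, rose as well. It read 12278, 18807 and 15441 in R3, against 4085, 4498 and 5348 in R2. The R1 arrays read 3235 and 3213, the R4 array 14759, and the R5 arrays 20941 and 54418. No R3 array overlapped R2, and both R5 arrays lay above all others. The log2 change in R3 against R2 was 1.73 ± 0.34 (SE, n = 3 each), or 3.31-fold (limma adjusted p = 0.00819). Its 3 probe sets gave 1.73, 2.24 and 3.94 on the log2 scale, so the size depended on the probe set and the direction did not.

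**Figure D2:**
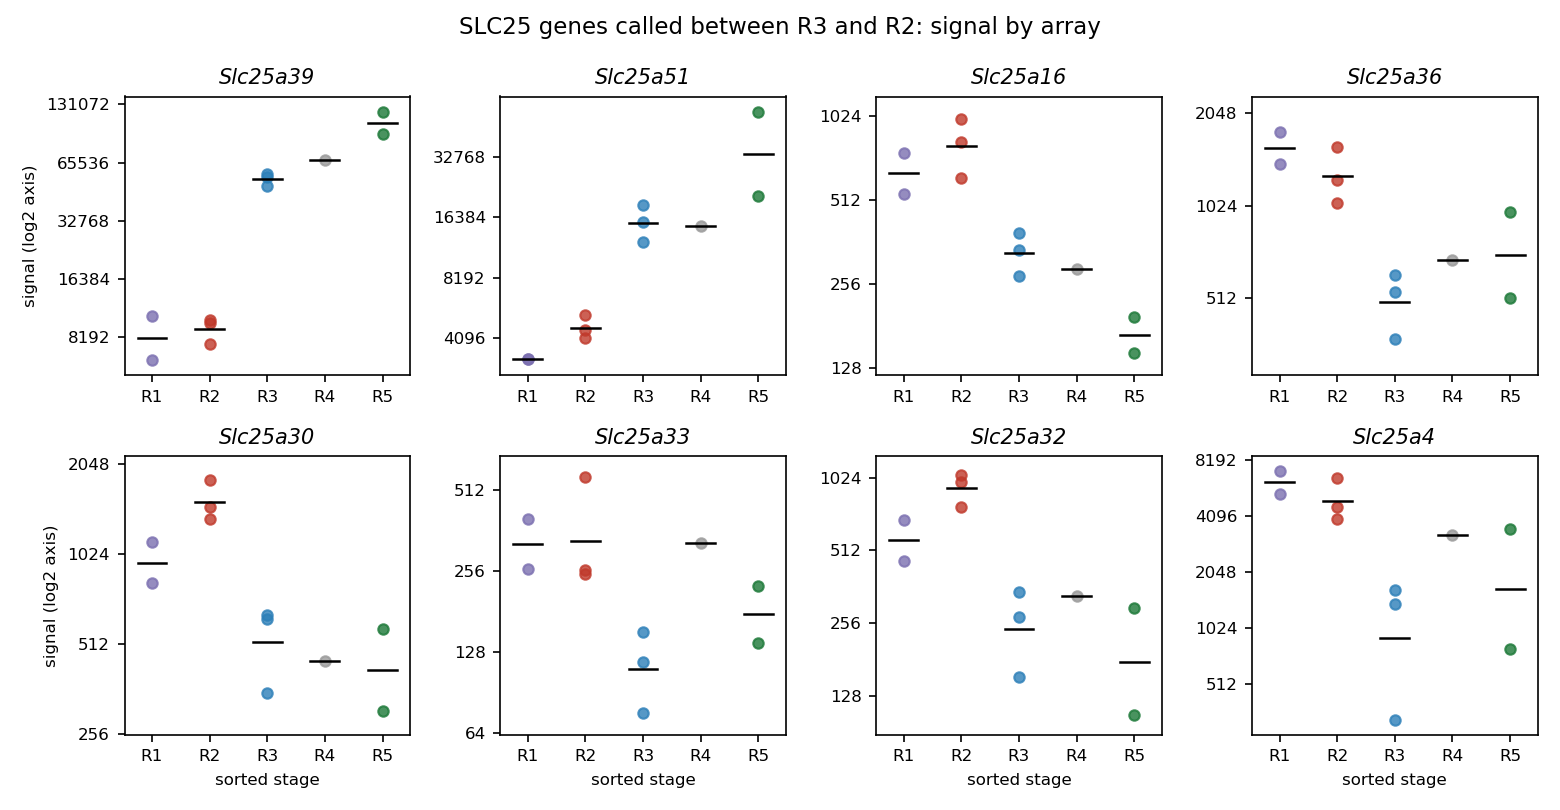
Deposited signal (log2 axis) of the 8 SLC25 genes that passed the test in R3 against R2, by stage; each point is 1 array and each bar the mean of log2 signals in a stage. Slc25a39 and Slc25a51 stand higher in R3, R4 and R5, whereas the other 6 stand lower in R3; on the single R4 array Slc25a4, Slc25a33 and Slc25a36 lie above all 3 R3 arrays.

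Of the nucleotide, cofactor and coenzyme carriers, all 8 members were tested, and beside the rise of Slc25a51 4 fell in R3 against R2. Their median log2 change was -1.31. The largest fall among those called was that of Slc25a32, which carries folate and is also linked to FAD. It read 271, 153 and 345 in R3, against 1049, 773 and 985 in R2, with 686 and 464 in R1, 331 in R4 and 295 and 106 in R5. The R2 arrays were the highest of all stages and did not overlap any other. The log2 change was -1.93 ± 0.44 (SE, n = 3 each; limma adjusted p = 0.0155), which is 3.82-fold lower in R3, and its 3 probe sets gave -1.93, -1.40 and -1.07.

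Slc25a33 and Slc25a36 both carry pyrimidine nucleotides into mitochondria, and both fell. Slc25a33 read 152, 76.0 and 118 in R3, against 571, 259 and 249 in R2. It read 400 and 261 in R1, 325 in R4 and 226 and 139 in R5, so R3 was low and the R4 array was not. The log2 change of Slc25a33 was -1.59 ± 0.45 (SE, n = 3 each), or 3.01-fold lower in R3 (limma adjusted p = 0.0323). Slc25a36 read 538, 378 and 611 in R3, against 1244, 1586 and 1047 in R2. In R1 its values of 1393 and 1768 were like those of R2, and R4 at 683 and R5 at 973 and 513 stayed below every R2 array. The log2 change of Slc25a36 was -1.35 ± 0.34 (SE, n = 3 each; limma adjusted p = 0.0209).

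Slc25a16, which is linked to coenzyme A in mitochondria by work in yeast, fell too. It read 338, 273 and 388 in R3, against 611, 999 and 823 in R2. R1 gave 538 and 750, R4 288, and R5 144 and 194, the lowest values of the series. The log2 change in R3 against R2 was -1.27 ± 0.32 (SE, n = 3 each; limma adjusted p = 0.0223). The other carriers of this role did not pass the test. Slc25a26, the S-adenosylmethionine carrier, read 110, 16.3 and 86.9 in R3, against 260, 282 and 165 in R2 (log2 change -2.09, limma adjusted p = 0.0943). The peroxisomal carrier Slc25a17 changed by -0.96 (0.0891) and the coenzyme A carrier Slc25a42 by 0.12 (0.826).

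Of the ADP/ATP, phosphate and ATP-Mg carriers 6 of 8 members were tested, and 1 fell. Slc25a4, an ADP/ATP carrier and the main one of heart and muscle, read 1636, 328 and 1380 in R3, against 6572, 4551 and 3953 in R2. It read 7165 and 5404 in R1, 3220 in R4 and 3493 and 794 in R5. No array of R3, R4 or R5 reached the lowest of R1 and R2. The log2 change in R3 against R2 was -2.44 ± 0.64 (SE, n = 3 each; limma adjusted p = 0.0254), or 5.43-fold lower in R3. Within replicate numbers it was -2.01, -3.79 and -1.52, and the 3 bright probe sets gave -2.35, -2.44 and -2.54, while 1 more, below the array median on all arrays, gave 0.44.

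The ADP/ATP carrier Slc25a5 did not pass the test in any comparison of the main fit. It read 27933, 17788 and 23302 in R3, against 20088, 15949 and 20834 in R2, with 16732 and 14108 in R1, 27091 in R4 and 25287 and 10499 in R5. Its log2 change in R3 against R2 was 0.26 ± 0.33 (SE, n = 3 each; limma adjusted p = 0.562). The gene is uncertain here, because 7 of its 8 probe sets gave a negative change, from -0.02 to -0.96, and related sequences in the genome may share its signal. Slc25a3, the phosphate carrier, read 26662, 17862 and 22947 in R3, against 25294, 19028 and 23070 in R2, so the stages overlapped almost fully. The log2 change was -0.01 ± 0.29 (SE, n = 3 each, limma adjusted p = 0.987). A dimmer probe set of Slc25a3 gave -0.73 in R3 against R2 and -2.33 in R5 against R1. With the probe set of largest interquartile range, Slc25a3 and Slc25a5 were called as falls in R5 against R1. Of the ATP-Mg carriers, which load the matrix with adenine nucleotides, Slc25a25 changed by 0.97, Slc25a24 by -0.997 and Slc25a23 by -0.36, and none passed the test.

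Of the amino acid and glutathione carriers 10 of 13 were tested, and only Slc25a39 passed in R3 against R2. Slc25a13, an aspartate/glutamate carrier of the malate-aspartate shuttle, read 622, 246 and 627 in R3, against 1090, 961 and 1039 in R2, and did not overlap (log2 change -1.17, limma adjusted p = 0.0586). Slc25a15, the ornithine carrier, read 541, 250 and 457 in R3, against 947, 949 and 673 in R2, also with no overlap (log2 change -1.10, limma adjusted p = 0.0715). Slc25a47, a carrier known mainly from liver, read 284, 276 and 214 in R3, against 164, 106 and 123 in R2 (log2 change 0.99 ± 0.33, SE, limma adjusted p = 0.0568). The glutamate carrier Slc25a22 changed by -0.72, the basic amino acid carrier Slc25a29 by 0.69 and the branched-chain amino acid carrier Slc25a44 by -0.15. These 3 missed the threshold, as did Slc25a12 at -0.47, Slc25a40 at 0.32 and Slc25a45 at -1.29.

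The remaining roles held 1 call. Slc25a30, a carrier related to the uncoupling proteins, read 638, 351 and 621 in R3, against 1465, 1336 and 1810 in R2, with 1119 and 816 in R1, 450 in R4 and 572 and 306 in R5. Its R2 arrays were the highest of the series. The log2 change was -1.56 ± 0.35 (SE, n = 3 each, limma adjusted p = 0.0148), or 2.94-fold lower in R3. Its other probe sets gave -1.53, -1.34 and -1.02, and the one below the array median on all arrays gave 1.97. Slc25a14, of the same group, read 87.8, 14.7 and 224 in R3, against 288, 263 and 247 in R2, and R5 at 28.5 and 22.7 was lower than either R1 array at 238 and 211. Its changes did not pass the test (limma adjusted p = 0.0912 for R3 against R2 and 0.0517 for R5 against R1), though it was among the 16 of the F-test. The citrate carrier Slc25a1 changed by -1.12 and the carnitine/acylcarnitine carrier Slc25a20 by -1.22 in R3 against R2, with limma adjusted p of 0.0569 and 0.0543. The dicarboxylate carrier Slc25a10 changed by 0.20 and the oxoglutarate carrier Slc25a11 by -0.65.

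Slc25a28, or mitoferrin 2, an iron carrier of the inner membrane, did not pass any test. It read 836, 426 and 805 in R3, against 962, 788 and 726 in R2, and the stages overlapped. R1 read 1080 and 850, R4 787, and R5 969 and 220, so the 2 R5 arrays differed widely and held the lowest value of the series. Slc25a46, an outer membrane protein that takes part in mitochondrial shape, read 3629, 3127 and 2774 in R3, against 2932, 3146 and 3388 in R2, a log2 change of 0.00 ± 0.23 (SE, n = 3 each; limma adjusted p = 0.993). Its R5 arrays, at 1747 and 1428, were the lowest of the series.

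The 6 falls depended on single arrays more than the 2 rises. Without replicate 2 of R3 none of the 6 passed, without replicate 1 of R2 1 did, and without replicate 2 of R2 2 did. Without replicate 2 of R3 the log2 change was -1.71 for Slc25a4 and -1.60 for Slc25a32, with limma adjusted p of 0.0835 and 0.064. Without either R5 array, which enter the fit only through the shared spread, 11 members fell.

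**Figure D3:**
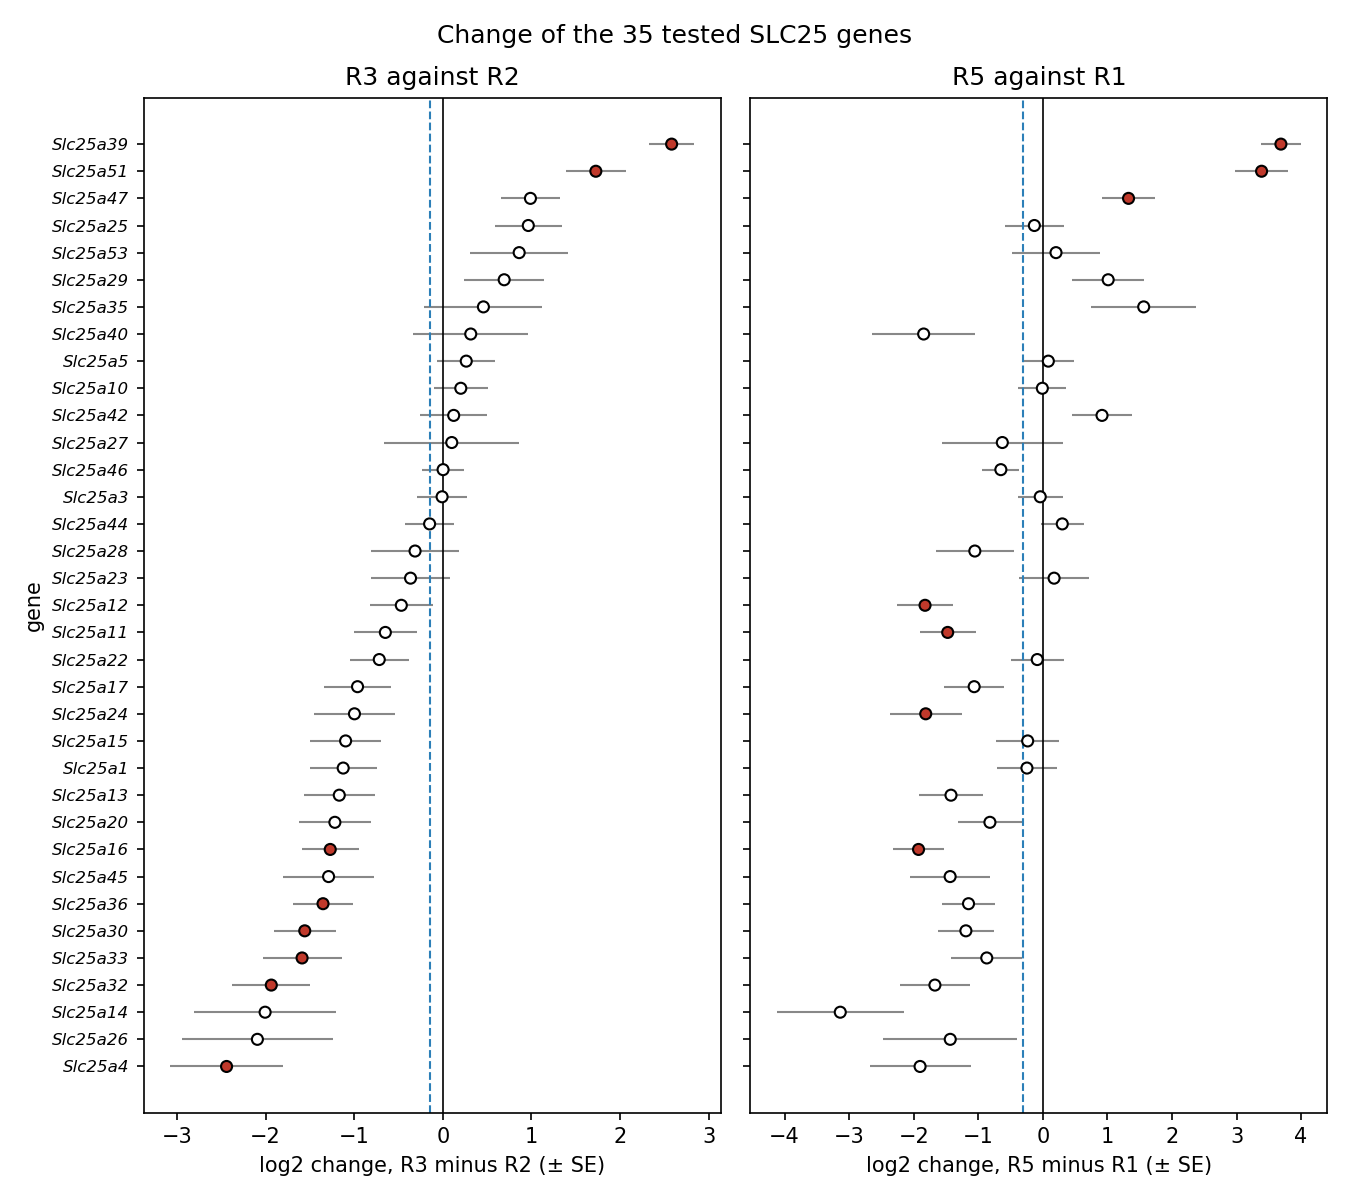
Log2 change with its SE for the 35 tested SLC25 genes in R3 against R2 and in R5 against R1; filled points passed the limma test at an adjusted p under 0.05 and the dashed line is the median change of all tested genes, -0.14 and -0.31. Slc25a39 and Slc25a51 lead the rises in both panels, and most points lie left of 0.

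Over the whole course, R5 against R1, 3 members rose and 4 fell (20.0%, against 16.8% of all tested genes). By direction 8.57% of members and 10.2% of all genes rose, and 11.4% of members and 6.57% of all genes fell. The median log2 change was -0.65 over the members and -0.31 over all genes. It rested on the R5 arrays: it was 0.02 over the members and -0.07 over all genes without replicate 2 of R5, and -1.22 and -0.47 without replicate 1. The arrays of R5 lay wholly below R1 for 15 members (42.9%, against 35.5% of all genes) and wholly above for 7 (20.0%, against 29.2%). After centring, the median of all genes was -0.89, and 2 members rose and 15 fell. The share of rises among the calls of all genes was 60.8% as deposited and 20.6% after centring. This comparison shares no array with R3 against R2, but both come from 1 fit with 1 estimate of the spread.

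Slc25a39 was 12.9-fold higher in R5 than in R1, a log2 change of 3.69 ± 0.32 (SE, n = 2 each; limma adjusted p = 9.48e-05). Slc25a51 was 10.5-fold higher, at 3.39 ± 0.41 (SE, n = 2 each; limma adjusted p = 0.000452). Both passed under all 20 alternatives, in R5 against R1 and in R3 against R2. Slc25a47 rose by 1.33 ± 0.41 (SE, n = 2 each; limma adjusted p = 0.0488), reading 363 and 406 in R5, against 179 and 131 in R1. Its call was lost with any 1 of the 10 arrays of R1, R2, R3 and R5 left out and after centring (0.74, limma adjusted p = 0.245). Its 4 highest readings were those of R4, both R5 arrays and replicate 1 of R3, and 6 of the 7 hepatocyte markers also rose in R5 against R1, by a median of 3.56 on the log2 scale; their part was not tested.

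All 4 falls lost the call when only the arrays of R5 and R1 were fitted. Slc25a16 fell by 1.93 ± 0.39 on the log2 scale in R5 against R1 (SE, n = 2 each; limma adjusted p = 0.00948), with R5 at 144 and 194, against R1 at 538 and 750. It lost the call without replicate 2 of R1 (limma adjusted p = 0.0682). Slc25a12, the other aspartate/glutamate carrier, read 1076 and 518 in R5, against 3368 and 2077 in R1, a log2 change of -1.83 ± 0.43 (SE, n = 2 each; limma adjusted p = 0.0193). Its R3 arrays, at 1940, 1462 and 2535, and its R4 array, at 1415, lay above both R5 arrays. Its limma adjusted p was 0.135 without replicate 2 of R5 and 0.129 if replicate 1 of R1 was left out, and its probe sets differed in sign.

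Slc25a24, an ATP-Mg carrier, read 678 and 664 in R5, against 1375 and 4051 in R1, a log2 change of -1.81 ± 0.56 (SE, n = 2 each; limma adjusted p = 0.0481). Replicate 2 of R1 set this value: without it the change was -1.03 (limma adjusted p = 0.243). That array also had the highest mean of the lymphocyte markers, at 9.87 against 7.49 on the other R1 array, and the part of such cells was not tested. Slc25a11, which exchanges oxoglutarate for malate, read 1103 and 425 in R5, against 1739 and 2081 in R1, a log2 change of -1.47 ± 0.43 (SE, n = 2 each; limma adjusted p = 0.0425). Without replicate 2 of R5 the change was -0.79 (limma adjusted p = 0.255). Of the 20 alternatives, 10 ended the call of Slc25a11 and 12 that of Slc25a24.

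In R2 against R1 none of the 35 members passed the test, against 0.466% of all tested genes (61 genes), and 2 members had an unadjusted limma p under 0.05 (5.71%, against 13.4% of all genes). These 2 were Slc25a24, which read 595, 1187 and 446 in R2, against 1375 and 4051 in R1, and Slc25a45, which read 666, 824 and 178 in R2, against 1374 and 1658 in R1. Both were lower on every R2 array. The log2 changes were -1.79 ± 0.51 and -1.71 ± 0.57 (SE, limma adjusted p = 0.17 and 0.231). The median over members was 0.08 and over all genes -0.05, and 21 members had a positive and 14 a negative change. The members' median was -0.11 without replicate 2 of R1, and -0.05 if replicate 1 of R2 was left out, so its sign turned on 1 array. After centring these medians were 0.44 and 0.30. Rises made up 75.4% of the calls of all genes as deposited and 88.9% after quantile normalization. R2 lay wholly above R1 for 10 members (28.6%, against 14.2% of all genes) and wholly below for 4 (11.4%, against 22.1%).

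In R5 against R3 none of the members passed either, against 0.00763% of all genes (1 gene), and 8 had an unadjusted limma p under 0.05 (22.9%, against 19.0% of all genes). Slc25a39, Slc25a45 and Slc25a51 had positive changes, and Slc25a12, Slc25a16, Slc25a25, Slc25a40 and Slc25a46 negative ones. For Slc25a25 the sign depended on the probe set, with -0.98 for the one used and 1.63 for a dimmer one. The median log2 change was 0.28 over members and 0.20 over all genes; among members it was -0.18 after quantile normalization and -0.25 after centring, when that of all genes was 0.02 and -0.34, so it had no stable sign. R5 lay wholly above R3 for 7 members (20.0%, against 22.8% of all genes) and wholly below for 5 (14.3%, against 13.6%). The largest single difference was that of Slc25a40, which is closely related to Slc25a39. It read 187 and 22.3 in R5, against 371, 358 and 253 in R3 (log2 change -2.32 ± 0.73, SE, limma adjusted p = 0.151), and the low value of replicate 2 carried most of it.

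The values of members with related substrates are set side by side here. Slc25a39 rose in R3 against R2, while Slc25a40 read 371, 358 and 253 in R3, against 214, 241 and 338 in R2 (log2 change 0.32 ± 0.65, SE, limma adjusted p = 0.736). Slc25a4 fell, and the change of Slc25a5 was 0.26 by the probe set used and negative by its other 7. The pyrimidine carriers Slc25a33 and Slc25a36 both fell in R3 against R2. The aspartate/glutamate carriers Slc25a12 and Slc25a13 had negative changes in R5 against R1, at -1.83 with a call and -1.42 without one (limma adjusted p = 0.0658). None of these differences between genes was tested, and a call in 1 gene and not in the other does not show that they differ.

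**Figure D4:**
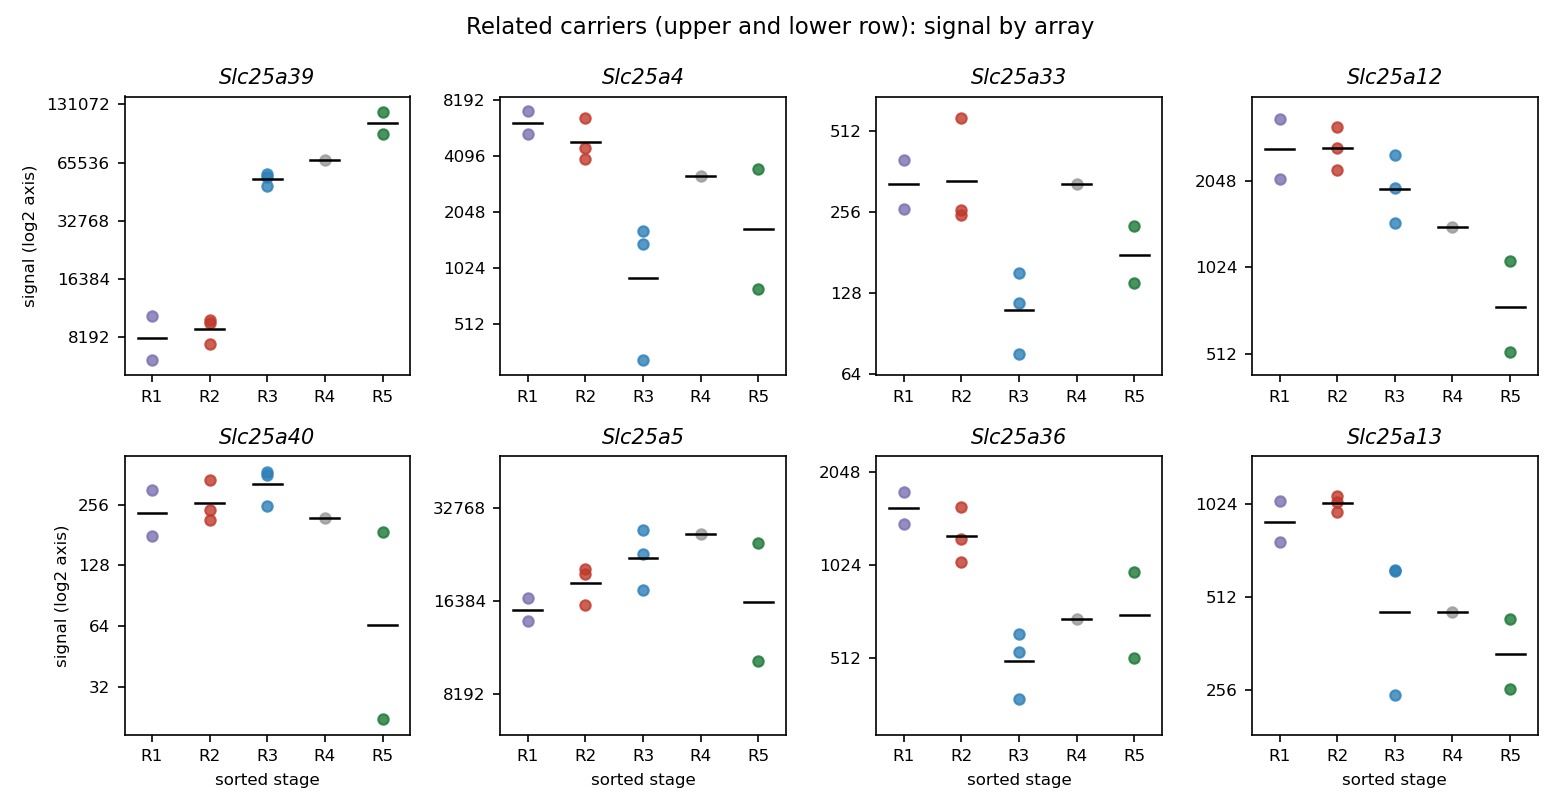
Deposited signal (log2 axis, spanning at least 8-fold in each panel) by stage for 4 pairs of related carriers, 1 pair per column; each point is 1 array and each bar the mean of log2 signals in a stage. Slc25a39 stands higher in R3 to R5 while Slc25a40 does not, Slc25a4 stands lower in R3 while Slc25a5 overlaps R2, and Slc25a33 and Slc25a36 are both lower in R3.

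The 7 members not tested were Slc25a2, Slc25a18, Slc25a31, Slc25a34, Slc25a41, Slc25a48 and Slc25a54. Their signals lay below the array median on at least 10 of the 11 arrays, and the highest of any, 172 for Slc25a34 on the R4 array, has no replicate. Of the tested members 27 were at or above the median on all 11 arrays, while Slc25a35, a carrier with no settled substrate, reached it on 3. Of the 42 members 19 had 1 probe set. In R3 against R2, 5 of the 19 tested members with several tested probe sets had some of opposite sign. They were Slc25a5, Slc25a12, Slc25a29, Slc25a44 and Slc25a53, and none of these 5 was called at that step. Such members numbered 5 in R2 against R1, 4 in R5 against R3 and 7 in R5 against R1. Of those 7 only Slc25a12 was called in R5 against R1.

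Genes that work with the carriers were read from lists of pathways. The import machinery that inserts carriers into the inner membrane had 14 tested genes, all with a negative change in R3 against R2, of which 3 fell and 11 did not pass. The median log2 change was -0.69, against -0.14 over all tested genes. Of all tested genes 10.1% fell and 10.6% rose at this step. No count of these lists was tested against those shares. Timm9, a chaperone of the intermembrane space, changed by -2.01 ± 0.49, the outer membrane channel Tomm40 by -1.87 ± 0.53 and the carrier receptor Tomm70a by -1.41 ± 0.37 (SE, n = 3 each; limma adjusted p = 0.0192, 0.0322 and 0.0262). In R2 against R1 all 14 had a positive change, with a median of 0.38, against -0.05 over all tested genes, and none called. Of the carriers of the family with other symbols, 3 were tested: Ucp3, an uncoupling protein, rose by 1.47 (limma adjusted p = 0.0465) and Mtch1, an outer membrane protein of the family, fell by 1.32 (0.0288). Of 16 other membrane transporters of mitochondria only 4 had a positive change in R3 against R2, and the median was -0.38 on the log2 scale. Of these 16, 2 passed the test as rises and none as a fall. They were the porphyrin transporter Abcb6, by 1.40, and the calcium uniporter subunit Smdt1, by 0.90 (limma adjusted p = 0.0242 and 0.0455).

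The enzymes on either side of the carriers were mixed. Their counts stand beside 10.6% of all tested genes that rose and 10.1% that fell in R3 against R2, and were not tested against these shares. In R3 against R2, 2 of 9 enzymes of the malate-aspartate shuttle and citrate metabolism fell, with log2 changes of -2.12 ± 0.41 for the aspartate aminotransferase Got1 and -1.29 ± 0.32 for the citrate-cleaving enzyme Acly (SE, n = 3 each; limma adjusted p = 0.00769 and 0.0216). Of 11 folate and glycine enzymes 2 rose, Gldc by 3.62 and Mthfd2 by 1.30 on the log2 scale, and 2 fell, with changes of -1.91 for Gcsh and -1.87 for Mthfd1. Gldc and Gcsh are parts of the glycine cleavage system, and Mthfd1 and Mthfd2 are folate enzymes of the cytosol and of mitochondria. Of 9 genes of the carnitine shuttle and fatty acid oxidation the carnitine acetyltransferase Crat rose by 1.14, while the medium-chain dehydrogenase Acadm (-1.45) and the carnitine palmitoyltransferase Cpt1a (-1.25) fell. Of 8 tested ornithine, arginine and polyamine enzymes 2 rose and 3 fell: Otc, a urea cycle enzyme of liver mitochondria, rose by 2.73 ± 0.59, Odc1 rose by 1.44, and the ornithine aminotransferase Oat fell by 2.11 ± 0.37 (SE, n = 3 each; limma adjusted p = 0.0119 for Otc and 0.00492 for Oat). Aldh18a1 and Asl fell by 1.51 and 1.30. Gldc and Otc are known from hepatocytes, whose 7 markers rose at this step by a median of 3.93 on the log2 scale; their part was not tested. Of the 21 called genes of these lists 4 kept the call with every array left out in turn, namely Got1, Acadm, Oat and Otc, while 17 lost it without replicate 1 of R2, 16 without replicate 2 of R3 and 15 without replicate 2 of R2. After centring, Ucp3, Abcb6, Smdt1, Mthfd2, Crat and Odc1 no longer passed.

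In the authors' deposited table, which sets each stage against R2, 7 tested members had a p-value under 0.05 for R5: Slc25a12, Slc25a16, Slc25a30, Slc25a32, Slc25a39, Slc25a47 and Slc25a51. For R1 it held none.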

How the data were processed

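MAS5 and limma are listed in the submitters' processing notes without versions. The deposited values were linear intensities of probe sets, with a trimmed mean of 500 (2% cut at each end) on each of the 11 arrays; which labelling step was used is not settled by the labels. A second deposited table of the authors holds log2 means and p-values per probe set against R2, used only where it is named. Probe sets were named by the platform annotation: of 45101, 64 were controls, 34945 had 1 gene, 932 several and 9160 none listed; all 42 members' symbols were current. Intensities were taken to log2 with no pseudocount and no further normalization. All arrays entered 1 limma 3.58.1 fit in R 4.3.3 (lmFit, eBayes with an intensity trend, a mean per stage, 6 residual and 4.83 prior degrees of freedom), with Benjamini-Hochberg adjustment over 13100 genes and calls at an adjusted p under 0.05. The number of arrays limits the precision, and the single R4 array was described by its value.

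Members and lists were chosen with earlier results of these data known. Described in full are the members called between neighbouring stages and, of the others, those among the 5 with the highest mean signal; from each pathway list up to 3 called genes, with those of the other direction. Arrays of different stages share replicate numbers, and per the labels a replicate set had its RNA extracted on a single date; whether a set is a stage or a number is not said. Deviations of same-numbered arrays from their stage means correlated at -0.15 to 0.40 (median 0.22, 10 of 13 pairs over 0.1). Those of different numbers correlated at -0.40 to 0.22 (median -0.165, 4 of 24 pairs over 0.1). Deviations cancel within a stage, so these pairs are not independent of each other. Because the labels do not settle whether the numbers pair the arrays, the main fit had no block. Alternatives were quantile normalization, centring, other filters, a pseudocount of 32, other probe set rules, no intensity trend, a replicate block, only the stages compared, and each array left out.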

Additional observations from a re-analysis of the deposited data

How the results depend on the processing

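Directions of the named calls held wherever an alternative gave a value. The 15 calls of single members in R3 against R2 and R5 against R1 gave 299 values, of which 234 kept the call and 65 lost it. Slc25a30 had no value in R3 against R2 with the probe set of largest interquartile range, so that its call was lost there without being counted. The only probe set of Slc25a30 too dim to be tested, at or above the array median on 0 arrays, changed by 1.97 at this step. Falls in R3 against R2 (6) numbered 16 after centring and 10 with only those stages fitted, and 0 to 11 with 1 array left out; rises (2) numbered 2 to 3. In R5 against R3, with no calls, centring gave 4 falls and leaving out an array 0 to 1 rises and 0 to 2 falls. Falls in R5 against R1 (4) numbered 15 after centring, 2 without the intensity trend, 7 with the probe set of largest interquartile range, 1 with only those stages (Slc25a14, with none of the 4 kept) and 1 to 13 with an array left out, 13 being without replicate 1 of R5. The F-test's 16 became 10 without the trend and 6 to 20 with an array left out. With the replicate number as a block, 11 members fell in R3 against R2 and 9 in R5 against R1, the added falls at the earlier step being Slc25a1, Slc25a13, Slc25a15, Slc25a17 and Slc25a20 and the added rise Slc25a47, and no call was lost; the numbers are not shown to pair the arrays. Slc25a30 (-0.69, limma adjusted p = 0.291), Slc25a32 (0.0598) and Slc25a36 (0.0573) lost the call in R3 against R2 with the mean over probe sets, and Slc25a16 (0.0748) and Slc25a33 (0.0583) with quantile normalization. Of all genes, 61 were called in R2 against R1, 100 after centring and 0 with the block, without the trend or with only those stages; 23 and 38 with other probe set rules, and 0 to 87 with an array left out. In R3 against R2 2716 became 4197 with the block and 840 to 3920 with an array left out. In R5 against R3 1 became 588 after centring, 169 with the block, 9 to 86 with quantile normalization, other probe set rules, the stricter filter or the pseudocount, and 0 to 633 with an array left out. In R5 against R1 2195 became 4520 after centring, 3735 with the block, 700 with only those stages and 631 to 4340 with an array left out. The F-test's 4839 of all genes became 2695 to 6131 with an array left out. Causes of these shifts were not tested. Signals below the array median on some arrays, as for Slc25a14, Slc25a26 and Slc25a40, limit what could be measured.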
